A study of Mus musculus with 12 samples.

Results

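The genes described here encode 6 non-integrin adhesion molecules of B cells: Selplg, Cd44, Icam1, Icam2, Pecam1 and Cd24a. They were chosen by name, by their role as a selectin ligand, a hyaluronan receptor, members of the ICAM family and related surface glycoproteins, and they are 6 of 43629 genes in the deposited count table. The study sequenced RNA of B cells sorted from mouse spleen in 12 libraries, 4 in each of 3 groups. The first group is Zfp36l1-deficient marginal zone (MZ) B cells with the genotype Zfp36l1fl/flERT2cre/+ (replicates 1, 2, 7 and 8). The second is control MZ B cells with the genotype ERT2cre/ERT2cre (replicates 3, 4, 5 and 6), and the third is follicular (FO) B cells with the genotype Zfp36l1fl/fl cre- (replicates 3, 4, 7 and 8). The strain field reads Zfp36l1tm1.1Tnr for all 12, and no age is given. The floxed allele is present in deficient MZ and absent from the control MZ genotype, which in turn has a second ERT2cre allele. ERT2cre is a drug-inducible recombinase; the labels name no promoter or cell type that drives it, and neither the time nor the dose of an inducer. FO cells differ from both MZ groups in genotype as well as in cell type.

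Lymphocytes slow and stop on vessel walls and within tissue through selectins, which bind sugars on mucin-like ligands, and through integrins, which bind immunoglobulin-like proteins such as the ICAMs. MZ B cells sit at the border between the splenic red and white pulp, where contact between integrins on the B cell and ICAM-1 and VCAM-1 on stroma holds them in place, whereas FO B cells recirculate through blood and lymph nodes. Zfp36l1 encodes an RNA-binding protein of the Zfp36 family, which binds AU-rich stretches in 3′ untranslated regions (UTRs) and promotes decay of the messenger RNA.

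The sequence bound by the Zfp36 family is commonly represented by the heptamer TATTTAT, with U for T in the RNA. The longest annotated 3′ UTR of each gene was read on the transcript's own strand for this heptamer (GENCODE M21 transcripts, build GRCm38), and 4 of 6 genes held it. Among the genes tested between deficient and control MZ cells that have an annotated 3′ UTR, 3345 of 11405 (29.3%) held it. The 8 windows are shown because they are the places in these transcripts that carry the letters of the family's motif. Each has 10 bases on either side, the heptamer in capitals, and its first base counted from the stop codon.
Cd24a, chr10:43584165-43584191 (+), base 1410 of 1500: tgtgtttgtgTATTTATgctttgattc
Cd44, chr2:102813557-102813583 (-), base 560 of 2992: agggtgatgcTATTTATctttagtaag
Cd44, chr2:102813539-102813565 (-), base 578 of 2992: tttagtaagcTATTTATctttgttttt
Cd44, chr2:102811467-102811493 (-), base 2650 of 2992: agtttttgtaTATTTATtgattgacta
Icam1, chr9:21028315-21028341 (+), base 379 of 871: cttcttgatgTATTTATtaatttagag
Icam1, chr9:21028342-21028368 (+), base 406 of 871: ttttaccagcTATTTATtgagtaccct
Pecam1, chr11:106655029-106655055 (-), base 98 of 926: cctgtgcacgTATTTATgagcctgtcc
Pecam1, chr11:106654395-106654421 (-), base 732 of 926: aatttttcttTATTTATtccccactaa
The heptamers of Cd44 at bases 560 and 578 stand close together, as do both of Icam1. The second Pecam1 window is the single one with a further T on each side of the heptamer, a nonamer found in 1 of 6 members and in 905 of 11405 genes (7.94%). The 3′ UTRs of Selplg (443 bases) and Icam2 (151 bases) held no heptamer. A match is a description of the letters and was not tested as a binding site.

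All 12 libraries had 28938453 to 40664963 counts, and levels are given as counts per 1000000 (CPM), scaled by the trimmed mean of M-values (TMM). The design text gives a SMARTer kit on 5 ng of RNA with 100 bp paired-end reads for MZ cells, and a stranded TruSeq kit with 100 bp single-end reads for FO cells. Cell type, kit, read layout and genotype thus change together between MZ and FO, and their parts cannot be told apart. Zfp36l1 itself had 21.9 to 37.4 CPM in deficient MZ, 109 to 125 CPM in control MZ and 355 to 396 CPM in FO. Its log2 fold change in deficient against control MZ was -1.98 (SE 0.13, edgeR quasi-likelihood test, adjusted p = 4.92e-07). Summed markers of MZ cells were 7115 to 7764 CPM in deficient MZ, 7983 to 8421 CPM in control MZ and 1433 to 1809 CPM in FO, and summed markers of FO cells 1649 to 1941, 1269 to 1466 and 6489 to 6852 CPM in the same order. In deficient against control MZ, 4 of the 10 MZ markers were higher and 1 lower (median log2 fold change -0.06); Cr2, at 3437 ± 226 CPM in deficient MZ and 4102 ± 255 CPM in control MZ, is a large part of the sum, and Cd1d1 was among the higher at 948 ± 148 CPM in deficient MZ and 640 ± 43.6 CPM in control MZ. Both gates are written as CD93-positive, yet Cd93 had at most 1.56 CPM in an MZ library and 17.4 to 23.2 CPM in FO. The libraries measure RNA from bulk populations, in which fewer cells of a type and less RNA per cell cannot be told apart.

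Within the cells, the 6 genes spanned a wide range of levels. The scale of CPM per kilobase of annotated exon allows only a rough comparison of genes. Its lengths span all annotated transcripts, and MZ and FO libraries differ in kit and read layout. On this scale Cd24a stood at 193 in deficient MZ, 153 in control MZ and 221 in FO. It ranked 189, 234 and 210 among 13111 genes in that order of groups. Pecam1 followed with 48.3, 44.1 and 69.3 CPM per kilobase. Icam1 and Icam2 lay near each other in MZ cells, with 33.1 and 33.9 CPM per kilobase in deficient MZ and 30.4 and 30.1 in control MZ. In FO cells they stood apart, with 17.1 CPM per kilobase for Icam1 and 65.1 for Icam2. Cd44 had 13.2, 12.8 and 11.3 CPM per kilobase and Selplg 11.4, 9.93 and 14.2 in deficient MZ, control MZ and FO, which placed them lowest of the 6.

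**Figure D1:**
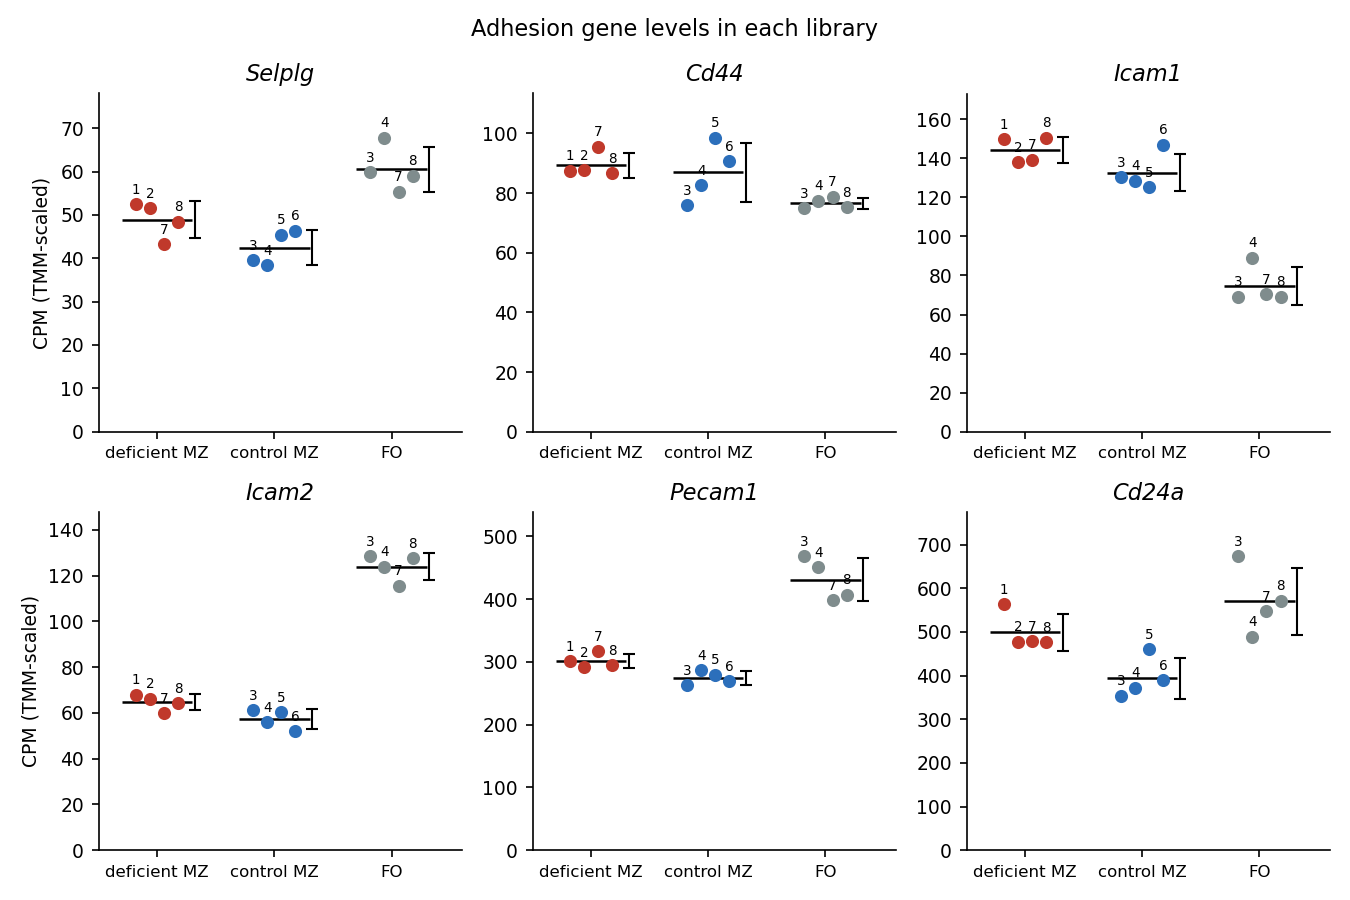
Level of each gene in CPM (TMM-scaled; vertical axis, starting at 0) in each library, with deficient MZ left, control MZ in the middle and FO right; points are libraries with their replicate number, lines are means and bars 1 SD (n = 4 each). Icam1 is high in both MZ groups and low in FO, Icam2 and Pecam1 are high in FO, and Cd24a in deficient MZ (477 to 563 CPM) lies above control MZ (354 to 460 CPM).

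Few of these genes were called between deficient and control MZ cells, where small changes were not reliably detectable. Cd24a was 1.26-fold higher, and the other 5 did not pass the threshold of an adjusted p under 0.05. Over all 13987 genes tested, 3.70% passed it in either direction (517 genes), 2.29% higher and 1.40% lower, so that 1 of 6 members is a small count against a small background. Without control replicate 3, 4 or 6, 306, 253 and 311 genes passed, and without deficient replicate 8, 299. The log2 fold changes of the 6 were all positive, with a median of 0.14, against a median of -0.0037 and 49.2% positive over all genes tested. Without regard to sign, the median over all genes tested was also 0.14.

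Cd24a, at 10:43578284-43584265 (+), encodes the heat-stable antigen CD24, a small lipid-anchored sialoglycoprotein that can bind P-selectin and the lectin Siglec-G, and that is known to be high on immature B cells and on red cell precursors. It had 563, 478, 478 and 477 CPM in deficient MZ replicates 1, 2, 7 and 8, against 354, 372, 460 and 389 CPM in control MZ replicates 3, 4, 5 and 6. Every deficient library lay above every control library, by a narrow gap between the lowest deficient library and control replicate 5. Its log2 fold change was 0.33 (SE 0.08, 95% interval 0.16 to 0.51, edgeR quasi-likelihood test, adjusted p = 0.0394). In the authors' deposited table for the same comparison, Cd24a had a log2 fold change of 0.31 and an adjusted p of 0.00588. The size of the difference varied little when single libraries were left out, but the call did not last: the log2 fold change ranged from 0.28 to 0.41 and the edgeR adjusted p from 0.0194 to 0.121. Of the 8 fits it passed in that without control replicate 5, and missed without deficient replicate 1 (0.28, adjusted p = 0.0576), 2 (0.36, 0.0544), 7 (0.36, 0.0531) or 8 (0.36, 0.0681) and without control replicate 3 (0.29, 0.121), 4 (0.32, 0.121) or 6 (0.33, 0.0932). The plot of adjusted p by fitting choice shows these values around the threshold.

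**Figure D2:**
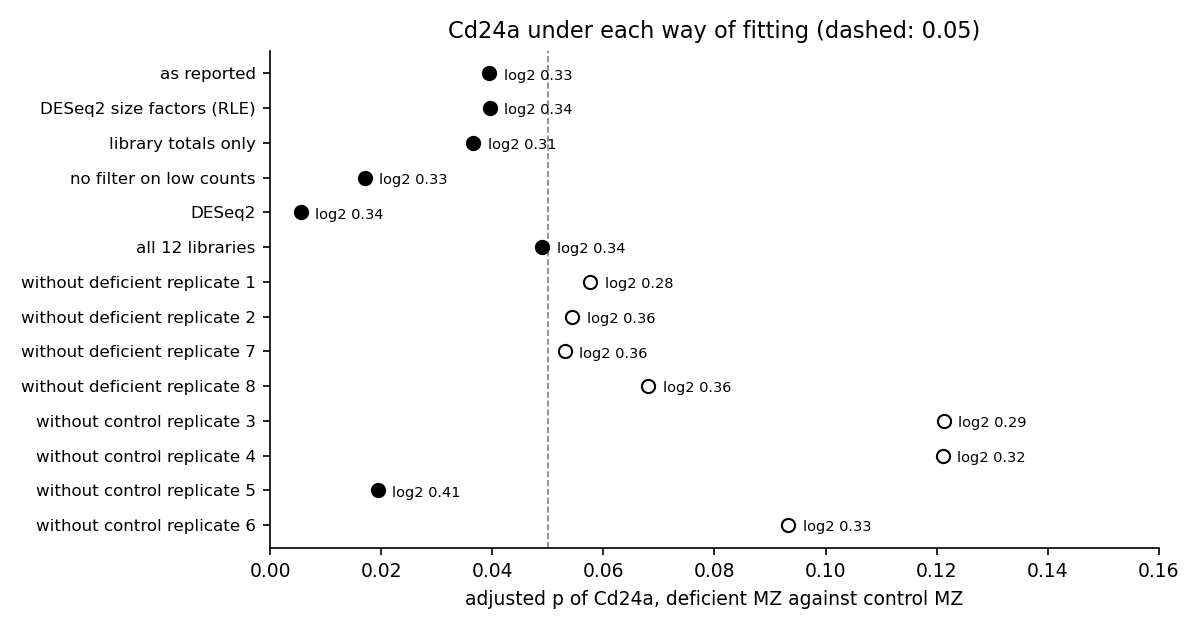
Adjusted p of Cd24a in deficient MZ against control MZ (horizontal axis) under each way of fitting (rows), with the log2 fold change written beside each point; filled points lie under 0.05 (dashed line). The log2 fold change stays between 0.28 and 0.41, while 7 of the 8 fits that leave out a library fall beyond the threshold.

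Markers of other cells that carry CD24 were read in the same libraries. Summed levels of 9 red cell precursor genes were 26.3, 16.2, 19.0 and 7.98 CPM in deficient MZ replicates 1, 2, 7 and 8, against 1.59, 2.02, 11.98 and 4.62 CPM in control MZ replicates 3, 4, 5 and 6. In both groups the library with the highest Cd24a, deficient replicate 1 and control replicate 5, was also the one with the highest sum of these markers, while deficient replicates 2, 7 and 8, nearly equal in Cd24a, differed in the sum. Of 7 such genes tested, 1 was higher and none lower in deficient MZ, and no gene of the list was at 0 in every library of a group. A list of 8 transitional B cell markers summed to 1897 to 2703 CPM in deficient MZ, highest in replicate 1, and to 1792 to 2069 CPM in control MZ. Most of it was Ly6d, with 1873 to 2667 CPM in deficient MZ and 1771 to 2037 CPM in control MZ. None of the 5 transitional markers tested passed, while Rag1 and Rag2 in deficient MZ and Dntt and Rag2 in control MZ had no count in any library. The part of these cells in the Cd24a difference was not tested.

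Pecam1, at 11:106654217-106750628 (-), encodes CD31, a homophilic adhesion receptor with inhibitory signalling motifs in its tail. It had 301, 291, 317 and 295 CPM in deficient MZ, against 263, 287, 280 and 269 CPM in control MZ. The groups did not overlap, as for 2 of 6 members and for 11.6% of all genes tested. The log2 fold change of 0.12 (SE 0.06, 95% interval -0.01 to 0.26) nevertheless had an edgeR adjusted p of 0.300.

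Selplg, at 5:113818536-113832644 (-), encodes PSGL-1, the mucin-like ligand that carries the sugars for selectins. It had 52.5, 51.5, 43.2 and 48.4 CPM in deficient MZ, against 39.5, 38.4, 45.4 and 46.3 CPM in control MZ. Deficient replicate 7 lay within the control range. The log2 fold change was 0.20 (SE 0.08, 95% interval 0.02 to 0.38, edgeR adjusted p = 0.218).

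Icam2, at 11:106377656-106388075 (-), encodes CD102, a ligand of the integrin LFA-1 that lymphocytes and endothelium carry at rest. Deficient MZ libraries had 68.0, 66.2, 59.9 and 64.3 CPM, against 61.1, 56.0, 60.2 and 52.0 CPM in control MZ. Deficient replicate 7 fell inside the control range, and the log2 fold change was 0.16 (SE 0.07, 95% interval 0.01 to 0.32, edgeR adjusted p = 0.238).

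Icam1, at 9:21015985-21028817 (+), encodes CD54, the inducible ligand of LFA-1 and Mac-1. It had 150, 138, 139 and 151 CPM in deficient MZ, against 130, 129, 125 and 147 CPM in control MZ. Control replicate 6 lay among the deficient libraries, and the log2 fold change was 0.11 (SE 0.07, 95% interval -0.04 to 0.27, edgeR adjusted p = 0.414).

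Cd44, at 2:102811141-102901665 (-), encodes the main cell-surface receptor for hyaluronan and another carrier of selectin-binding sugars. Its levels were 87.5, 87.6, 95.5 and 86.7 CPM in deficient MZ, against 75.9, 82.6, 98.6 and 90.6 CPM in control MZ. The deficient libraries fell inside the wider control range. The log2 fold change was 0.03 (SE 0.08, 95% interval -0.14 to 0.20, edgeR adjusted p = 0.859). Given only the spread among these libraries, a difference up to those bounds in either direction remains possible. In the authors' deposited table, none of the 5 genes other than Cd24a passed 0.05.

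**Figure D3:**
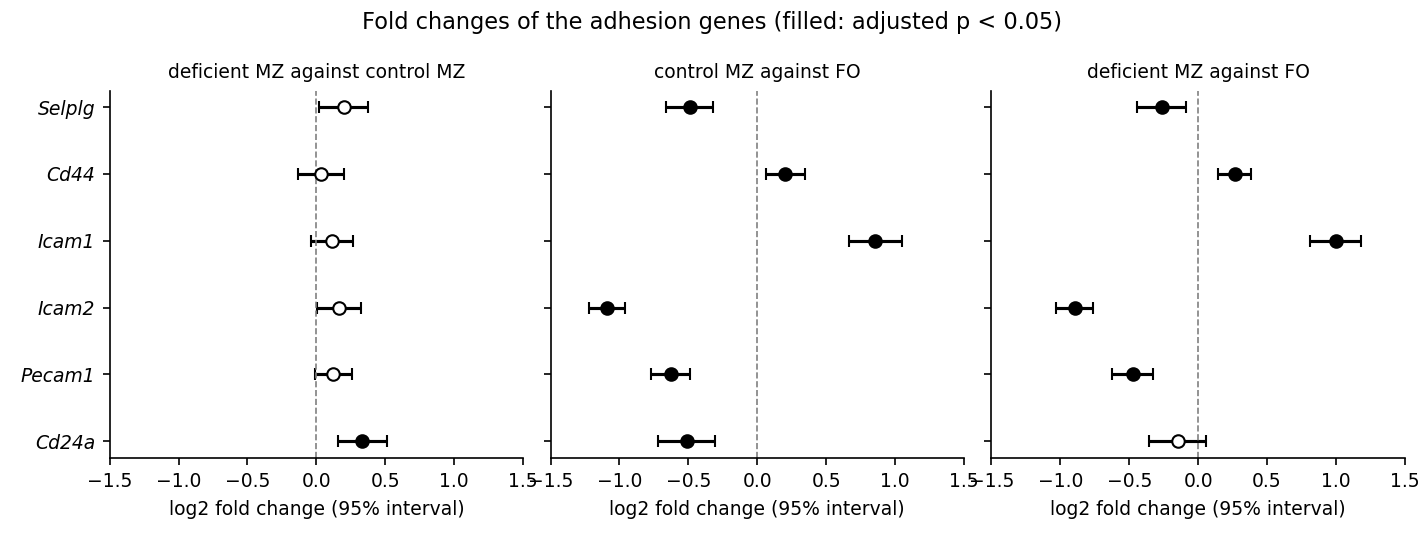
Log2 fold change with its 95% interval (horizontal axis) of each gene (rows) in deficient MZ against control MZ (left), control MZ against FO (middle) and deficient MZ against FO (right); filled points have an adjusted p under 0.05 by the edgeR quasi-likelihood test. Against control MZ the values lie between 0.03 and 0.33, whereas against FO Icam1 reaches 0.86 and 0.999 and Icam2 -1.09 and -0.90.

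In control MZ against FO, all 6 members passed the threshold, Icam1 and Cd44 higher and Icam2, Pecam1, Cd24a and Selplg lower. This share is near the background, since 81.5% of the 13843 genes tested passed, 42.6% higher and 38.8% lower. The members' median log2 fold change was -0.50, against 0.05 over all genes tested. When libraries were scaled by their totals alone, the median of all genes was 0.38 and the share of called genes that were higher was 65.9%, against 52.3% with TMM. Under that scaling the log2 fold changes were 1.18 for Icam1, 0.52 for Cd44, -0.77 for Icam2, -0.31 for Pecam1 and -0.17 for Selplg, all 5 still past the threshold, while Cd24a missed it at -0.19 (edgeR adjusted p = 0.0714).

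The ICAM genes moved in opposite directions. Icam1 averaged 133 ± 9.68 CPM in control MZ (125 to 147) and 74.5 ± 9.79 CPM in FO (SD, n = 4 each), where replicates 3, 4, 7 and 8 had 69.2, 89.1, 70.4 and 69.2 CPM. The groups stood well apart, with a log2 fold change of 0.86 (SE 0.09, edgeR adjusted p = 1.95e-06). FO replicate 4 was the highest FO library for Icam1 and also for macrophage markers, of which 14 genes summed to 36.9 CPM there and to 15.97 to 19.1 CPM in the other 3 FO libraries. In control MZ the same markers summed to 32.6 to 41.5 CPM, and 9 of the 11 tested were higher and 1 lower in control MZ than in FO. Without FO replicate 4 the log2 fold change of Icam1 was 0.95. An antisense gene covers 11.7% of the exonic bases of Icam1. Because the strand setting of the counting is not stated, reads from that gene may be included in the Icam1 counts.

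Icam2 averaged 57.3 ± 4.19 CPM in control MZ and 124 ± 5.87 CPM in FO (SD, n = 4 each), where replicates 3, 4, 7 and 8 had 129, 124, 116 and 128 CPM. The highest control MZ library lay far below the lowest FO library, and the log2 fold change was -1.09 (SE 0.06, edgeR adjusted p = 6.24e-09), the lowest of the 6 members. The ratio of Icam1 to Icam2 counts within a library does not depend on scaling between libraries. It was 2.24 ± 0.121 in deficient MZ (2.08 to 2.34), 2.33 ± 0.341 in control MZ (2.08 to 2.83) and 0.602 ± 0.0848 in FO (0.538 to 0.720; SD, n = 4 each). Per kilobase of exon the mean ratios were 0.978, 1.02 and 0.263. Per kilobase of annotated exon, Icam1 and Icam2 counts were thus about equal in the MZ libraries, and Icam1 counts were the lower in FO. The exon lengths cover all annotated transcripts, and kit and read layout differ between MZ and FO. The ratio of transcripts in the cells was therefore not measured. The rest of the family was close to absent in these cells: Icam4 had no count in the 8 MZ libraries, where a count of 0 allows up to 3, and 7 to 11 counts in FO, and Icam5 had at most 11 counts in any library.

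**Figure D4:**
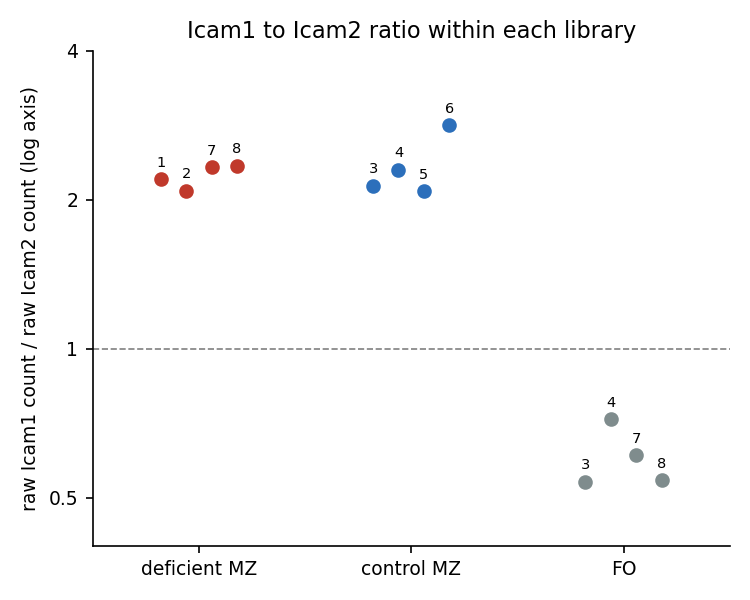
Ratio of the raw Icam1 count to the raw Icam2 count in each library (vertical axis, log scale), with deficient MZ left, control MZ in the middle and FO right; points carry their replicate numbers and the dashed line marks equal counts. All 8 MZ libraries lie between 2.08 and 2.83, and the 4 FO libraries between 0.538 and 0.720.

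Pecam1 averaged 275 ± 10.8 CPM in control MZ and 431 ± 33.8 CPM in FO (SD, n = 4 each), with 469, 451, 398 and 407 CPM in FO replicates 3, 4, 7 and 8. No MZ library reached the FO range, and the log2 fold change in control MZ was -0.63 (SE 0.06, edgeR adjusted p = 1.6e-06). Endothelial cells and platelets carry CD31 and CD102 as well. Summed endothelial markers were 8.09 to 8.84 CPM in control MZ and 3.25 to 4.94 CPM in FO, with Cldn5, Emcn, Kdr and Tek at 0 throughout control MZ and Cldn5, Kdr, Tek and Tie1 at 0 throughout FO. Summed platelet markers were 18.6 to 27.6 CPM in control MZ and 5.49 to 6.36 CPM in FO, and all 10 tested were higher in control MZ. Of the 2 endothelial markers tested, 1 was higher in control MZ and none lower. Both sums were lower in FO, the group with more Pecam1 and Icam2. The part of such cells in the Pecam1 and Icam2 differences was not tested.

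Selplg averaged 42.4 ± 4.05 CPM in control MZ and 60.5 ± 5.25 CPM in FO (SD, n = 4 each), with 59.8, 67.8, 55.4 and 59.0 CPM in FO replicates 3, 4, 7 and 8. The groups did not overlap, and the log2 fold change was -0.49 (SE 0.08, edgeR adjusted p = 8.74e-05). Cd24a averaged 394 ± 46.7 CPM in control MZ and 570 ± 77.0 CPM in FO, with 674, 489, 547 and 571 CPM in FO replicates 3, 4, 7 and 8. Here too every FO library lay above every control MZ library, with a log2 fold change of -0.51 (SE 0.10, edgeR adjusted p = 0.000301). Of the 5 transitional markers tested, 3 were lower and 2 higher in control MZ than in FO (median log2 fold change -2.03): Cd93 (-4.83), Vpreb3 (-2.14) and Sox4 (-2.03) shared the direction of Cd24a, and Ly6d (0.91), which makes up most of the sum, and Bst1 (3.72) did not. The part of such cells in the Cd24a difference was not tested.

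Cd44 had the log2 fold change nearest to 0 with TMM, though not with library totals. It averaged 86.9 ± 9.83 CPM in control MZ and 76.6 ± 1.84 CPM in FO (SD, n = 4 each), with 74.9, 77.5, 78.8 and 75.3 CPM in FO replicates 3, 4, 7 and 8. Control replicate 3 lay within the FO range, and the log2 fold change was 0.20 (SE 0.07, edgeR adjusted p = 0.0125). It was the single member whose groups overlapped, against 5 of 6 that did not and 76.5% of all genes tested that did not. In the authors' deposited table for MZ against FO wild-type cells, all 6 genes passed, with log2 fold changes of -0.49 for Selplg, 0.20 for Cd44, 0.85 for Icam1, -1.09 for Icam2, -0.63 for Pecam1 and -0.52 for Cd24a.

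Deficient MZ cells differed from FO cells in 5 of 6 members, 2 higher and 3 lower, where 81.3% of the 13895 genes tested passed, 42.9% higher and 38.4% lower. This comparison shares its deficient libraries with the first and its FO libraries with the second, so the values stand side by side as descriptions. Icam1 was higher, at 144 ± 6.70 CPM in deficient MZ and 74.5 ± 9.79 CPM in FO, with a log2 fold change of 0.999 (SE 0.09, edgeR adjusted p = 2.63e-07). Cd44 was higher as well, at 89.3 ± 4.16 CPM in deficient MZ and 76.6 ± 1.84 CPM in FO, with a log2 fold change of 0.27 (SE 0.06, edgeR adjusted p = 0.000729), and here its groups did not overlap. Icam2 (-0.90, SE 0.06, edgeR adjusted p = 2.98e-08), Pecam1 (-0.47, SE 0.07, adjusted p = 2.99e-05) and Selplg (-0.26, SE 0.08, adjusted p = 0.0102) were lower. Their levels in deficient MZ were 64.6 ± 3.50, 301 ± 11.2 and 48.9 ± 4.19 CPM.

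Cd24a was the member that did not pass in deficient MZ against FO. It averaged 499 ± 42.8 CPM in deficient MZ and 570 ± 77.0 CPM in FO (SD, n = 4 each), the groups overlapped, and the log2 fold change was -0.15 (SE 0.09, 95% interval -0.35 to 0.06, edgeR adjusted p = 0.164). Leaving out deficient replicate 1, the highest of its group, gave -0.22 (adjusted p = 0.0377), and leaving out FO replicate 4, the lowest of its group, gave -0.23 (adjusted p = 0.0328), both past the threshold by edgeR. In this comparison 5 of 6 members and 76.0% of all genes tested did not overlap between groups. With libraries scaled by their totals alone, the median of all genes was 0.33 and 64.2% of called genes were higher, against 52.8% with TMM. Selplg then stood at 0.0039 (edgeR adjusted p = 0.964), without the difference seen with TMM. The means of Selplg, Icam2, Pecam1 and Cd24a in deficient MZ lay between those of control MZ and FO, while those of Icam1 and Cd44 lay above both.

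The genes whose products these 6 molecules meet were taken as 8 lists of partners, enzymes and linkers. In deficient against control MZ, the lists of glycosylation and sulfation enzymes of selectin ligands (23 tested), of the linkers between membrane and actin, including ezrin, radixin and moesin (22 tested), and of the beta 2 integrins that bind ICAM proteins (5 tested) held no gene past the threshold. Their median log2 fold changes were 0.00094, -0.02 and 0.0064, against -0.0037 over all genes. Itgb2, the shared beta chain of LFA-1 and Mac-1, had 319 ± 11.96 CPM in deficient MZ and 271 ± 6.80 CPM in control MZ (0.23, edgeR adjusted p = 0.0519), and Itgal, the alpha chain of LFA-1, had 333 ± 19.6 and 381 ± 16.5 CPM (-0.21, adjusted p = 0.119). Ezr had 755 ± 89.0 CPM in deficient MZ and 615 ± 17.0 CPM in control MZ (0.29, edgeR adjusted p = 0.0565). These 3 genes were picked after their values were seen and do not pass the threshold.

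In deficient against control MZ, the list of 10 tested genes linked to KLF2, a transcription factor that promotes lymphocyte recirculation, held 5 higher and none lower (median log2 fold change 0.30); it was drawn up with the rise of Klf2 already known. It shares Klf2, Ccr7 and Itgb7, among others, with the list of FO cell markers. Of those markers, 7 of 9 were higher and none lower in deficient MZ (median log2 fold change 0.45). Over all genes tested there, 2.29% were higher and 1.40% lower. Klf2 had 148 ± 5.93 CPM in deficient MZ and 40.3 ± 7.54 CPM in control MZ (1.87, edgeR adjusted p = 1.64e-07), and S1pr4, a receptor for sphingosine 1-phosphate, 43.9 ± 3.42 and 29.4 ± 2.39 CPM (0.57, adjusted p = 0.00169). Klf2 and S1pr4 passed in all 8 fits that left out a library. Ccr7 (0.36, edgeR adjusted p = 0.0238), a chemokine receptor for entry into lymph nodes, missed without control replicate 3, 4 or 6 (adjusted p 0.0753 to 0.0775). Itgb7 (0.45, edgeR adjusted p = 0.0328), an integrin chain for homing to the gut, missed without deficient replicate 1, 2 or 8 or control replicate 5 or 6 (adjusted p 0.0616 to 0.0953).

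Lists of hyaluronan and CD44 partners, of other immunoglobulin-superfamily genes and of CD31 and CD24 partners held 4 genes past the threshold in deficient against control MZ. Of 12 tested hyaluronan and CD44 partners (median log2 fold change 0.08), Srgn, the proteoglycan serglycin, was higher at 460 ± 44.1 CPM in deficient MZ and 372 ± 30.2 CPM in control MZ (0.30, edgeR adjusted p = 0.046), and Hspg2, the matrix proteoglycan perlecan, was lower at 2.04 ± 1.02 and 4.68 ± 0.694 CPM (-1.18, adjusted p = 0.0385). Of 18 other adhesion genes of the immunoglobulin superfamily (median -0.0011), Cd2, a lymphocyte adhesion receptor, was higher at 146 ± 17.7 CPM in deficient MZ and 112 ± 13.5 CPM in control MZ (0.37, edgeR adjusted p = 0.0433). Of 15 partners of CD31 and CD24 and genes of inhibitory signalling (median 0.0079), the adaptor Grb2 was higher at 433 ± 28.2 CPM in deficient MZ and 353 ± 22.4 CPM in control MZ (0.29, edgeR adjusted p = 0.0314). All 4 calls were lost in most, though not all, of the fits that left out 1 library. Srgn missed without deficient replicate 1, 7 or 8 or control 3, 4 or 6 (adjusted p 0.0611 to 0.142), Hspg2 without deficient 1 or 8 or control 3, 4, 5 or 6 (0.0616 to 0.0914), Cd2 without deficient 1 or 8 or control 3, 4 or 6 (0.0745 to 0.131) and Grb2 without deficient 2 or 7 or control 3, 4 or 6 (0.0621 to 0.117), all by edgeR.

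**Figure D5:**
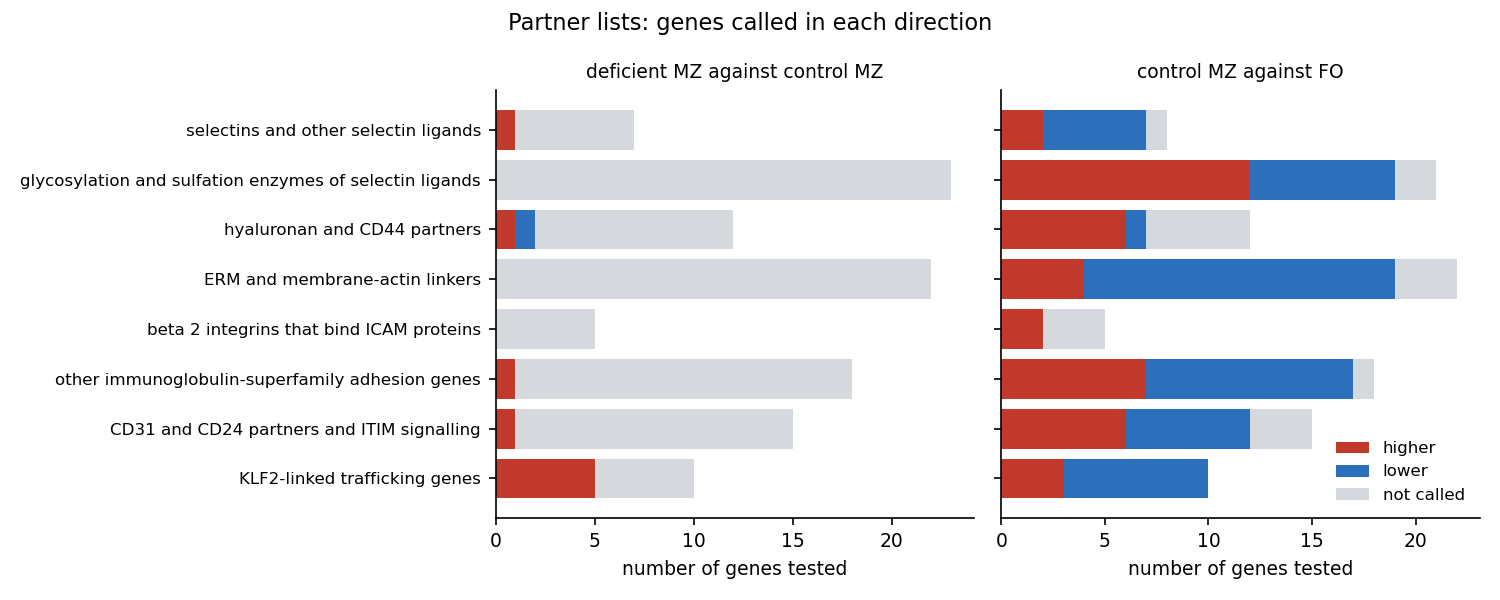
Number of genes tested in each list of partners (rows) that were higher (red), lower (blue) or not past an adjusted p of 0.05 (grey) in deficient MZ against control MZ (left) and in control MZ against FO (right). On the left few genes pass outside the KLF2-linked list (5 of 10), and 3.70% of all genes do. That list includes Klf2 and was drawn up with its rise already known. On the right most genes outside the beta 2 integrins pass, as do 81.5% of all genes. The beta 2 integrin count there ranged from 1 to 5 with 1 library left out.

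In control MZ against FO, where 81.5% of all genes passed, most genes of each list but the beta 2 integrins (2 of 5) passed too. The beta 2 integrin count was unstable, at 1 to 5 higher with 1 library left out. With libraries scaled by totals alone, the lists gave in the order of the list plot 2 higher and 4 lower, 15 and 6, 10 and 0, 5 and 9, 4 and 0, 9 and 9, 7 and 4 and 3 and 7. Among 8 tested selectins and selectin ligands, 2 were higher and 5 lower in control MZ, with a median log2 fold change of -1.02 against 0.05 over all genes. Spn, the sialomucin CD43, was lower, with 1.66 ± 0.570 CPM in control MZ and 27.3 ± 4.24 CPM in FO (-4.01, edgeR adjusted p = 1.78e-09). The lysosomal proteins Lamp1 (0.58) and Lamp2 (0.27), which can carry selectin-binding sugars, were higher.

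Of the enzymes that build selectin-binding sugars, 12 of 21 tested were higher and 7 lower in control MZ (median log2 fold change 0.21). Over all genes tested, 42.6% were higher and 38.8% lower. Tpst2 and Tpst1, the tyrosine sulfotransferases that act on PSGL-1, were both higher, Tpst2 at 214 ± 16.6 CPM in control MZ and 35.6 ± 3.87 CPM in FO (2.61, edgeR adjusted p = 4.11e-11) and Tpst1 at 91.3 ± 8.44 and 42.7 ± 2.35 CPM (1.12, adjusted p = 1.45e-08). The sialyltransferases St3gal2 (1.49) and St3gal6 (0.74) were higher and St3gal1 lower, the last at 16.1 ± 1.56 CPM in control MZ and 244 ± 4.16 CPM in FO (-3.90, edgeR adjusted p = 5.69e-13). C1galt1 (-1.48) and Gcnt1 (-1.35), which extend and branch the O-linked sugars of mucins, were lower, as was B4galt5 (-1.61). Selplg, the protein that these sugars decorate, was lower itself.

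On the side of CD44, 6 of 12 tested partners were higher and 1 lower in control MZ (median log2 fold change 0.36). Mif, a cytokine that signals through CD74 and CD44, had 89.8 ± 5.76 CPM in control MZ and 38.7 ± 2.98 CPM in FO (1.24, edgeR adjusted p = 3.94e-09), and Cd74, the invariant chain, had 17130 ± 775 and 9566 ± 474 CPM (0.86, adjusted p = 3.1e-07). Hyal2 (1.28) and Lgals9 (0.48) were higher as well, and Srgn was lower at -0.34, a call lost with libraries scaled by totals alone (-0.02, edgeR adjusted p = 0.777). Of the 22 membrane-actin linkers tested, 4 were higher and 15 lower (median log2 fold change -0.32), but Ezr, Rdx, Rock1, Stk10, Actn4 and Rap1b of the 15 missed with library totals alone. Msn, moesin, which ties PSGL-1, CD44 and the ICAMs to actin, was lower, with 1142 ± 31.8 CPM in control MZ and 1889 ± 58.6 CPM in FO (-0.70, edgeR adjusted p = 9.42e-08), and Rassf5, which links the small GTPase Rap1 to LFA-1, was higher, with 389 ± 20.2 and 245 ± 8.02 CPM (0.69, adjusted p = 3.12e-08).

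The integrin side of the ICAM pairs gave 2 higher and none lower of 5 tested in control MZ (median log2 fold change 0.44). With 1 library left out, 1 to 5 of them were higher and none lower. Itgb2 was higher, with 271 ± 6.80 CPM in control MZ and 191 ± 12.1 CPM in FO (0.53, edgeR adjusted p = 1.79e-06), and Itgal had 381 ± 16.5 and 353 ± 27.5 CPM (0.13, adjusted p = 0.0869). Itgad, at 1.03 ± 0.523 CPM in control MZ and 0.301 ± 0.342 CPM in FO (1.79, edgeR adjusted p = 0.0296), missed without control replicate 3, 5 or 6 or FO replicate 3, 7 or 8 (adjusted p 0.0508 to 0.0814). Among 18 other immunoglobulin-superfamily genes, 7 were higher and 10 lower (median log2 fold change -0.33). Sirpa (3.91), an inhibitory receptor for CD47, and Cd47 itself (0.89) were higher, and Alcam (-5.44), the ligand of CD6, and Cd2 (-1.23) were lower.

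Partners of CD31 and CD24 comprised 6 higher and 6 lower of 15 tested (median log2 fold change 0.05). Siglecg, the receptor for CD24 on B cells, was higher at 1226 ± 40.8 CPM in control MZ and 887 ± 65.6 CPM in FO (0.49, edgeR adjusted p = 1.28e-05), against the direction of Cd24a. Cd38, a surface enzyme reported to bind CD31, was higher at 816 ± 82.9 and 398 ± 57.6 CPM (1.06, edgeR adjusted p = 6.91e-07), against the direction of Pecam1. Ptpn11 (-1.58), the phosphatase recruited by the tail of CD31, was lower, as was the kinase Csk (-1.47), while the kinase Lyn (0.66) was higher. In the KLF2-linked list 3 were higher and 7 lower of 10 (median log2 fold change -1.41), with S1pr1 (1.78) and Itgb1 (1.56) higher and Itga4 (-2.37) and Itgb7 (-2.53) lower. In deficient MZ against FO the same 8 lists gave, in the order of the list plot, 2 higher and 6 lower, 11 and 7, 7 and 1, 4 and 15, 2 and 0, 7 and 11, 6 and 5, and 3 and 7.

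The genes most like each member in pattern were ranked by the root mean square difference of centred log2 CPM over the 12 libraries, among 8344 genes whose mean log2 CPM was 3 or more. Nearest to Selplg was Rplp0 (0.08, where the root mean square of Selplg about its own mean was 0.24), then U2af1 and Gar1. Cat (0.05 against 0.13), Gdi2 and Zfand5 were nearest to Cd44. Faap24 (0.09 against 0.44), Uros and H2-D1 were nearest to Icam1, and Gng2 (0.08 against 0.50), Dpysl2 and Fam111a to Icam2. Hnrnpa2b1 (0.05 against 0.29), Rbms1 and Crat were nearest to Pecam1. Fam204a (0.11 against 0.26), Id3 and Hhex were nearest to Cd24a, which had the largest distance to its first neighbour of the 6. The median distance of all these genes from Cd24a was 0.39. Such distances include the difference between MZ and FO libraries, where kit, read layout and genotype change too. Shared regulation was not tested.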

How the data were processed

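RNA was sequenced from 12 libraries of sorted splenic B cells. The tools named by the submitters' processing notes are TopHat2 2.0.12, Trim Galore, DESeq2 1.10.1 and HTSeq, and the build is GRCm38; neither annotation release nor strand setting is stated. For FO the labels disagree: SMARTer in the extract protocol, TruSeq in the design text. The authors deposited raw counts per gene, with no normalization, and tables with log2 fold changes and p-values from DESeq2, which are quoted as theirs. A deposited signal, the counts divided by a factor per library by the authors, entered no result.

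Of 43629 gene IDs, 42548 matched GENCODE M21. Counts were tested with edgeR 4.0.16 (R 4.3.3; quasi-likelihood test, TMM, edgeR's own filter on low counts, Benjamini-Hochberg adjustment over all genes tested, 3 fits with 8 libraries each). A gene was called at an adjusted p under 0.05; SE is the log2 fold change over the root of F. The CPM scale uses TMM over all 12 libraries. Fits were tested on counts drawn with known changes. No library columns were identical (0), and replicates differed beyond sampling noise (chi-square per gene 5.78 to 48.6). The spread was uneven within groups. Control MZ replicates 3 and 4 (6.48) and FO replicates 7 and 8 (5.78) were much closer than other pairs of their groups (17.4 to 25.9). Deficient MZ replicate 1 stood at 25.9 to 48.6 from the rest of its group, whose other pairs gave 12.7 to 15.9. Whether replicates are separate animals is not stated, and p-values then reflect only the spread among these libraries, which may be technical. Alternatives were DESeq2 1.42.0 and its size factors, library totals, no filter, a fit of all 12 libraries, a replicate block, and each library left out. Up to 4 genes per list and direction, those with the smallest p among the called, were open to naming. The members and lists were chosen with earlier results of these data known. Some genes of the lists are not reported here.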

Additional observations from a re-analysis of the deposited data

Results flagged for a closer look

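In 3 of 18 groups of 4 libraries (6 genes in 3 groups), 1 library lay far from the other 3 by Dixon's test; chance gives about 1 group in 20. Cd44 in deficient MZ replicate 7 was 95.5 CPM, where the other 3 deficient libraries had 86.7 to 87.6 CPM. Cd24a in deficient MZ replicate 1 was 563 CPM, where the others had 477 to 478 CPM; that library also had the highest sums of red cell precursor markers (26.3 CPM) and of transitional B cell markers (2703 CPM), whose part was not tested. Icam1 in FO replicate 4 was 89.1 CPM, where the others had 69.2 to 70.4 CPM; that library had the highest macrophage marker sum among FO libraries (36.9 CPM), whose part was not tested.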

How the results depend on the processing

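The number of genes called in deficient against control MZ was 517 with the reported fit, 1049 with DESeq2 (567 higher, 482 lower) and 788 with all 12 libraries fitted together, and 253 to 483 with 1 library left out. Of the 6 members, 0 to 1 passed there with 1 library left out, 6 in each such fit of control MZ against FO, and 5 to 6 in deficient MZ against FO. Over 13 alternatives, Cd24a in deficient against control MZ was positive in all and passed in 6. Selplg in deficient MZ against FO reversed to 0.0039 with library totals alone. The others of the 6 genes kept the sign of their reported value in all alternatives, except Cd44 in deficient against control MZ, which reached -0.02 and never passed, and Cd24a in deficient MZ against FO, which was 0.12 with library totals alone and did not pass. The cause of these shifts was not tested. Replicate numbers shared between MZ and FO were not taken as pairs in the reported fits. Deviations of same-numbered libraries correlated at -0.06, -0.12, 0.22 and -0.03 for numbers 3, 4, 7 and 8, and their genotypes differ. With so few shared numbers, these values cannot show whether such libraries shared a batch. With the replicate block, 9951 genes passed in control MZ against FO and Cd44 missed (0.09, edgeR adjusted p = 0.246), while 11042 passed in deficient MZ against FO and Cd24a with them (-0.18, adjusted p = 0.0197). No paired analysis was possible in deficient against control MZ because these groups share no numbers. With 4 libraries a group, a log2 fold change near 0.2, as for Selplg, was not reliably detectable.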

Other observations

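Levels of markers of further cell types gave values that enter no comparison above. Natural killer cell markers summed to 19.9 to 26.2 CPM in deficient MZ, 17.7 to 23.0 CPM in control MZ and 2.45 to 3.39 CPM in FO; Eomes, Gzma and Ncr1 had no count in any MZ library, and Klra8 none in control MZ, while no marker of that list was at 0 throughout FO. Plasma cell markers summed to 679 to 799 CPM in deficient MZ, 622 to 799 CPM in control MZ and 269 to 292 CPM in FO, although 4 of the 7 tested were lower and 3 higher in control MZ than in FO (median log2 fold change -0.52). T cell markers summed to 40.03 to 46.4 CPM in deficient MZ, 37.8 to 49.4 CPM in control MZ and 39.6 to 49.3 CPM in FO. Despite the similar sums, 2 of the 4 tested were higher and none lower in deficient than in control MZ (median log2 fold change 0.98). Over all genes tested there, 2.29% were higher. Cd3e, Cd4 and Il7r had no count in any control MZ library, while no marker of that list was at 0 throughout deficient MZ or FO. The part of T cells in other differences was not tested. Neutrophil markers stayed under 1 CPM in every library, at 0.41 to 0.67 CPM in deficient MZ, 0.34 to 0.69 CPM in control MZ and 0.12 to 0.35 CPM in FO.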
